A study of Mus musculus with 30 samples.

Results

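The genes described here are 44 genes of intraepithelial T cells, the lymphocytes that sit between the epithelial cells of the gut. They were chosen by name, as every row of the count table whose symbol is one of 44 listed genes, and all 44 were found among its 54146 genes. They cover the T cell receptor complex, co-receptors, homing and retention genes, receptor signalling, cytotoxic effectors, NK-type receptors, the Gimap family, transcription factors and other lymphocyte genes, which makes 9 roles. The list carries no cell sort with it: RNA came from the whole released epithelium, and the T cells were part of it.

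Female C57B6/J mice of 8 to 10 weeks, all labelled WT (wild type) and all kept for 1 week on the semi-purified diet AIN93G, which lacks dietary ligands of the aryl hydrocarbon receptor (AHR), were gavaged with corn oil (vehicle) or with 10 µg of indolo[3,2-b]carbazole (ICZ), a ligand of that receptor, in corn oil. The small intestine was taken 12 h later, and its epithelium was released by EDTA in 5 sequential fractions, F1 to F5. Each fraction gave a 3' end RNA library. The 3 vehicle mice gave 15 libraries and the 3 ICZ mice 14, with F1 of ICZ replicate 3 not analysed here. Libraries with the same treatment and replicate number were taken as fractions of the same mouse.

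Intraepithelial T cells recognise antigen through the T cell receptor, whose CD3 chains pass the signal to the kinases Lck, Fyn and Zap70. Many of them carry CD8 as an alpha chain homodimer, are held in the epithelium by the integrin of Itgae and Itgb7, which binds E-cadherin on epithelial cells, and are drawn to the small intestine through the chemokine receptor Ccr9. They store granzymes and the chemokine Ccl5 and bear NK-type receptors, and in mice their maintenance in the gut depends on AHR.

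The 29 libraries held 4359673 to 7819837 gene reads (median 6351137), and the 44 genes took between 0.0251% and 0.188% of them. Member reads per library ran from 1096 to 12199. Replicate libraries of a group differed by more than sampling noise in all 28 pairs, with a chi-square per degree of freedom of 4.74 to 96.1. Nothing in the labels says whether replicates were handled on separate days. Where ICZ and vehicle mice were compared with no further term, p-values measure the spread between these mice. In fits with a term for the mouse or the replicate number, they measure the spread left after that term. The F5 library of ICZ replicate 1 stood apart: 54.3% of its reads fell on its 10 most abundant genes, where the median library had 26.8%, and its TMM normalization factor was 0.734, the lowest of the 29. Levels below are CPM, the reads of a gene scaled by the library's total of gene reads times its TMM factor, and since a 3' end library draws its reads from the transcript end, CPM were not divided by gene length. The low factor raises every CPM of that F5 library: the members together stood at 1105 CPM in it, and at 811 CPM on its plain total of gene reads.

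Of the 44 genes, Gzma, a granule protease of cytotoxic lymphocytes, took 26.2% of the members' mean CPM, Ccl5, a chemokine made by memory and cytotoxic T cells, 18.5%, and Cd7, a surface protein of T and NK cells, 8.37%. Cd3d and Cd3e were read in all 29 libraries. Cd8a, the alpha chain of the co-receptor, had a mean of 17.5 CPM and Cd8b1, the beta chain, 1.402 CPM. Transcripts of both receptor classes were present: the constant regions Trac and Trbc2, of alpha-beta T cells, had means of 8.82 and 17.7 CPM and Trdc, of gamma-delta T cells, 14.7 CPM, although none of these is among the 44. At the low end, Eomes, a transcription factor of memory and NK cells, had 23 reads over all libraries, Klrk1, the activating receptor NKG2D, 66, and Cd2, an adhesion receptor, 95. Ptprcap, a partner protein of CD45, had 0 reads, where 3 reads over the plain totals of the 29 libraries would be 0.0161 CPM. Its exons overlap those of Coro1b and Rps6kb2, which also had 0 reads, so the 0 says nothing about the cells. Epithelial markers stood far above the T cell genes, with 8 pan-epithelial genes adding to between 4862 and 7208 CPM per library against 224 to 1796 CPM for the 44 members together.

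In the vehicle mice the T cell genes, taken as a sum, were highest in F2 and lowest in F4. Their summed level in F1 to F5 was 548, 789, 518, 508 and 601 CPM in vehicle replicate 1. Vehicle replicate 2 had 924, 949, 422, 252 and 524 CPM, and vehicle replicate 3 had 1505, 1796, 729, 394 and 414 CPM. The sum of all 3 mice thus peaked in F2 and had its lowest value in F4, although replicate 3 lay far above replicate 1 in F1 and F2. Without Gzma and Ccl5, replicate 2 was higher in F1 (507.55 CPM) than in F2 (495.41 CPM). Gene by gene, F2 lay above F1 in 3 of 3 vehicle mice for 16 of 41 members, against 16.8% of 14067 genes. F3 lay below F2 in 3 of 3 vehicle mice for 32 of 41 members that passed the filter, against 15.5% of 14067 genes, and F4 lay below F2 in all 3 for 34 of 41, against 19.8%.

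**Figure D1:**
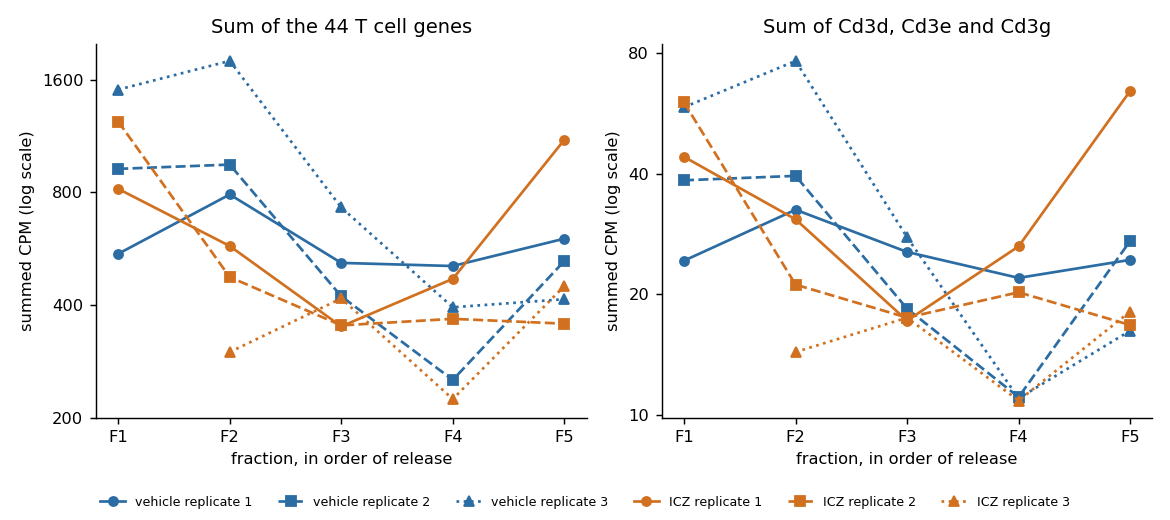
Summed CPM (log scale) of the 44 T cell genes (left) and of Cd3d, Cd3e and Cd3g (right) in fractions F1 to F5, with 1 line per mouse, blue for vehicle and orange for ICZ; ICZ replicate 3 has no F1 point. The 3 vehicle lines peak in F2 at 789 to 1796 CPM, where the 3 ICZ lines lie at 299 to 575 CPM, and the F5 point of ICZ replicate 1 lies at 1105 CPM.

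Between the 5 fractions of the vehicle mice, 23 of 39 tested members differed at an adjusted p of 0.05 in edgeR's quasi-likelihood test (a term per mouse, Benjamini-Hochberg adjustment over 13164 genes), as did 20.6% of these genes. By role, 3 of 4 genes of the receptor complex, 2 of 6 co-receptors, 2 of 4 homing genes, 3 of 4 signalling genes, 1 of 6 cytotoxic genes, 2 of 3 NK-type and cytokine receptors, 4 of 4 Gimap genes, 3 of 4 transcription factors and 3 of 4 other lymphocyte genes passed. The 4 with the smallest p were Cyfip2, a subunit of the actin regulating WAVE complex (adjusted p = 0.0012), Gimap7 (0.0014), Ikzf2, which encodes the transcription factor Helios (0.0033), and Ccr9 (0.004). The count moved with single mice: it was 34 of 40 (28.5% of all genes tested) when vehicle replicate 1 was left out, 1 of 39 (3.57%) without vehicle replicate 2 and 1 of 38 (1.96%) without vehicle replicate 3. A fit with no term for the mouse gave 10 of 39, against 1454 of 13164 genes.

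Ikzf2 shows the shape in single values. Vehicle replicate 1 had 9.14 CPM in F1, 21.8 in F2, 10.4 in F3, 7.83 in F4 and 11.6 in F5. In vehicle replicate 2 these were 18.8, 21.7, 7.35, 6.17 and 11.4 CPM, and in vehicle replicate 3 they were 25.3, 32.4, 9.78, 5.49 and 6.48 CPM. F2 was the highest fraction in each mouse. Gzma had 149, 244 and 410.3 CPM in F1 of vehicle replicates 1 to 3, then 199, 276 and 469.9 CPM in F2 and 128, 51.8 and 86.7 CPM in F4; its adjusted p for a difference between fractions was 0.067.

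F5, the last fraction, was set against F1, the first, in the vehicle mice. Of 39 tested members 4 were lower in F5 past an adjusted p of 0.05 in edgeR's quasi-likelihood test and 0 were higher, where 13.2% of 13164 tested genes were lower and 14.9% higher. The 4 were Gimap7, a GTPase of the lymphocyte Gimap family, at a log2 fold change of -1.44 ± 0.31 (SE, adjusted p = 0.0026), Nkg7, a granule membrane protein of cytotoxic cells, at -1.29 ± 0.35 (0.014), Ccr9 at -0.87 ± 0.25 (0.014) and Zap70, the kinase that binds phosphorylated CD3 chains, at -1.60 ± 0.53 (0.033). Gimap7 stood at 6.92, 13.5 and 15.4 CPM in F1 and at 3.04, 4.39 and 5.49 CPM in F5, without overlap. The median log2 fold change was -0.75 over the 39 members and 0.02 over all tested genes, and 38 of 39 members had a negative value, against 48.2% of genes. Rgs1, which dampens chemokine receptor signalling, was the exception at 0.24 ± 0.32. Without vehicle replicate 3 the median was -0.26 and 1 of 38 members passed in either direction, Rgs1, which was higher in F5, against 6.67% of genes. Without vehicle replicate 2 it was -0.81 with 2 of 39, Gimap7 and Nkg7 (14.7% of genes), and without vehicle replicate 1 it was -1.19 with 28 of 40 (31.4%). Among genes of other immune cells, B cell and plasma cell genes went the other way, with 3 of 5 tested higher in F5. In the same comparison 7 of 8 villus enterocyte genes were lower in F5, and 8 of 8 crypt and proliferation genes and 10 of 10 heat shock and immediate early genes, known to respond to handling of tissue, were higher. The part of these shifts in the T cell values was not tested.

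The ICZ mice had another order of fractions. ICZ replicate 1 had a summed level of 817, 575, 351, 469.6 and 1105 CPM in F1 to F5, ICZ replicate 2 had 1236, 475, 353, 367 and 356 CPM, and ICZ replicate 3 had 299, 416, 224 and 449 CPM in F2 to F5. No ICZ mouse had its highest value in F2. F2 was below F1 in both ICZ mice with an F1 library, at 0.704 and 0.384 times its level, whereas in the vehicle mice F2 was at 1.44, 1.03 and 1.19 times the level of F1. On plain library totals these ratios were 0.749 and 0.4365 in the ICZ mice and 1.46, 1.09 and 1.31 in the vehicle mice, and F2 was again the highest and F4 the lowest fraction in all 3 vehicle mice. Without Gzma and Ccl5, the ratio of vehicle replicate 2 was 0.976, so that the separation of the groups at 1 rests on these abundant genes in that mouse. Gene by gene, 13 of 41 members had F2 above F1 in 3 of 3 vehicle mice and below it in 2 of 2 ICZ mice, against 2.40% of 14067 genes: Cd3d, Cd3e, Cd2, Itgb7, Ccr9, Rgs1, Fyn, Gzma, Ccl5, Gimap4, Ikzf2, Runx3 and Ms4a6b.

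Over the 14 ICZ libraries, 8 of 38 tested members differed between fractions at an adjusted p of 0.05 by the same edgeR test, below the 26.4% of all 13328 tested genes. Cd160, an immunoglobulin-type receptor of intraepithelial and NK cells, had the smallest p among them (adjusted p = 0.0095), followed by Itgb7 (0.013), Gimap7 (0.018) and Ccr9 (0.022). Without the F5 library of ICZ replicate 1 the count was 25 of 38, against 36.5% of genes, and without ICZ replicate 1 it was 24 of 40, against 29.1%. Without ICZ replicate 2 it was 3 of 39, against 6.29%, and without ICZ replicate 3 it was 2 of 38, against 13.7%.

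F2 was where ICZ and vehicle mice stood furthest apart. The summed level was 1178 ± 541 CPM in vehicle F2 and 449.7 ± 139 CPM in ICZ F2 (SD, n = 3 mice each), a ratio of 0.382 without overlap of the groups, and 0.517 when vehicle replicate 3 was left out. In bulk samples fewer T cells in a fraction and less RNA per T cell cannot be told apart. All 37 tested members had a negative log2 fold change, from -2.15 to -0.89, with a median of -1.43 beside 0.0004 over all 12115 tested genes, of which 50% were below 0. The 7 members not tested in F2, for too few reads, were Cd2, Ptprcap, Prf1, Fasl, Klrk1, Klre1 and Eomes.

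**Figure D2:**
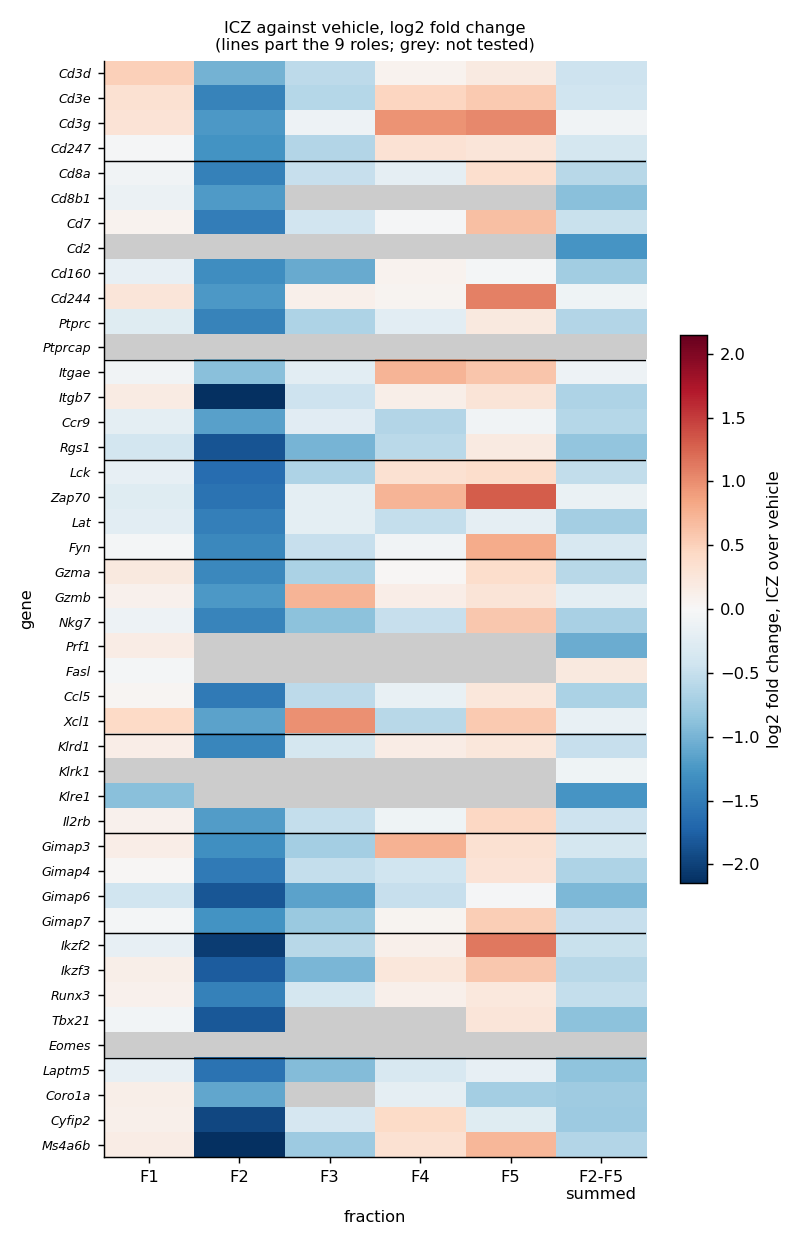
Log2 fold change of ICZ over vehicle (edgeR) for each of the 44 genes (rows, grouped by the 9 roles) in F1 to F5 and in F2 to F5 added per mouse (columns); blue is lower and red higher after ICZ, and grey marks a gene that was not tested. The F2 column is blue in all 37 tested genes, from -2.15 to -0.89, while F1 and F4 have medians near 0 and 29 of 36 genes are positive in F5.

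At an adjusted p of 0.05 in edgeR's quasi-likelihood test 1 of the 37 passed, Ikzf2, beside 0.0165% of all genes (2 of 12115). Ikzf2 had 21.8, 21.7 and 32.4 CPM in vehicle F2 and 7.19, 7.14 and 4.96 CPM in ICZ F2. The groups were far from overlapping, and the log2 fold change was -2.04 ± 0.23 (SE, adjusted p = 0.0092). Its exons overlap an antisense gene, Gm29114, and the strand setting of the counting is not given. How reads in the overlap were counted is thus unknown, and the Ikzf2 values are uncertain to that extent. At an unadjusted p under 0.05 there were 34 of 37 members, against 12.0% of all genes, and for 22 of 37 every ICZ mouse lay below every vehicle mouse, against 6.26% of all genes.

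That count moved with the fit and with single mice. Vehicle and ICZ mice of the same replicate number deviated together from their group means in F2, although the labels state no pairing. With the replicate number as a block 11 of 38 tested members were lower after ICZ at an adjusted p of 0.05 and 0 higher, against 1.09% and 0.84% of genes. These were Ikzf2 (adjusted p = 0.00014), Ikzf3 (0.0021), Lck (0.003), Gimap6 (0.0031), Cyfip2 (0.0035), Itgb7 (0.0066), Ms4a6b (0.0072), Cd244 (0.011), Cd160 (0.014), Fyn (0.026) and Klrd1 (0.031). DESeq2 called 19 of 37 in F2, against 1.02% of genes, edgeR without a filter on low counts 28 of 43, against 1.42%, and limma voom 0, against 0%. Leaving out vehicle replicate 2, vehicle replicate 3 or ICZ replicate 2 gave 0 calls among the members and among all genes. Leaving out vehicle replicate 1 gave 2 (0.104% of genes), ICZ replicate 1 gave 14 (2.13%) and ICZ replicate 3 gave 1 (0.0162%).

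Receptor and co-receptor genes in F2 can be read from Cd3e, a signalling chain of the receptor complex, which stood at 14.9, 13.8 and 35.9 CPM in vehicle mice and at 10.6, 9.32 and 5.36 CPM in ICZ mice. The groups do not overlap, but the nearest values, 13.8 and 10.6 CPM, are closer than the lowest and highest vehicle values, and Cd3e did not pass (-1.43 ± 0.45, adjusted p = 0.32 in edgeR's test). Its partner chain Cd3d had 9.64, 13.8 and 21.3 CPM against 10.2, 6.21 and 6.70 CPM, where the groups overlap. Cd7 had 60.7, 79.9 and 150.0 CPM against 48.0, 34.3 and 26.0 CPM. Ptprc, the leukocyte phosphatase CD45, had 35.5, 33.4 and 86.0 CPM against 24.6, 19.3 and 16.1 CPM. For Cd7 and Ptprc the ICZ mice lay below the vehicle mice, and vehicle replicate 3 was far above the other two. Cd160, which binds the receptor HVEM, had 9.13, 10.2 and 14.7 CPM against 5.75, 4.81 and 3.62 CPM.

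Of the homing and retention genes, Itgb7, the beta chain of the integrin that binds E-cadherin, had 5.07, 7.52 and 12.5 CPM in vehicle F2 and 2.34, 2.33 and 1.34 CPM in ICZ F2 (log2 fold change -2.13 ± 0.39, adjusted p = 0.089 in edgeR's test). Rgs1 had 29.4, 28.8 and 71.8 CPM against 13.3, 13.7 and 10.8 CPM. Ccr9 had 13.5, 21.3 and 38.9 CPM against 13.8, 12.0 and 8.57 CPM, and here the groups overlap. The Itgae value, for the alpha chain partner of Itgb7, was the smallest of the 37, at -0.89 ± 0.43.

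Cytotoxic genes were spread widely among the vehicle mice. Gzma stood at 199, 276 and 469.9 CPM in vehicle F2 and at 152, 149 and 75.5 CPM in ICZ F2, and Ccl5 at 159, 177 and 367 CPM and at 113, 92.7 and 50.6 CPM. Both separate the groups, with log2 fold changes of -1.39 ± 0.44 and -1.52 ± 0.48 that did not pass edgeR's test (adjusted p = 0.35 and 0.36). Gimap6 had 10.2, 7.81 and 14.9 CPM against 4.49, 2.64 and 2.54 CPM. Cyfip2 had 9.30, 6.81 and 14.7 CPM against 2.88, 3.11 and 2.28 CPM, and Lck, the kinase bound to CD8, had 10.5, 10.9 and 20.5 CPM against 5.39, 4.04 and 4.55 CPM. In all 3 the lowest vehicle value was clear of the highest ICZ value.

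The remaining roles also had negative values in F2. Klrd1, the CD94 chain of inhibitory and activating NK receptors, had 8.46, 7.81 and 11.2 CPM in vehicle mice and 5.57, 3.42 and 2.01 CPM in ICZ mice. Il2rb, a chain shared by the receptors for the cytokines IL-2 and IL-15, had 7.78, 13.2 and 25.2 CPM against 8.63, 7.76 and 4.69 CPM. Klrd1 separates the groups and Il2rb does not. Runx3, a transcription factor of the CD8 lineage, had 10.996, 16.0 and 29.6 CPM against 8.99, 6.83 and 6.03 CPM, and Fyn had 9.64, 9.94 and 17.2 CPM against 5.93, 5.43 and 3.48 CPM. Gimap4 had 27.2, 23.7 and 47.5 CPM against 16.9, 10.1 and 9.11 CPM, and Laptm5 had 18.1, 19.3 and 45.3 CPM against 13.1, 7.76 and 8.17 CPM. These 4 genes also had every ICZ mouse below every vehicle mouse, and none of the 6 passed edgeR's test. Zap70 had 3.21, 1.99 and 10.9 CPM against 2.16, 2.17 and 1.34 CPM, with overlap.

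**Figure D3:**
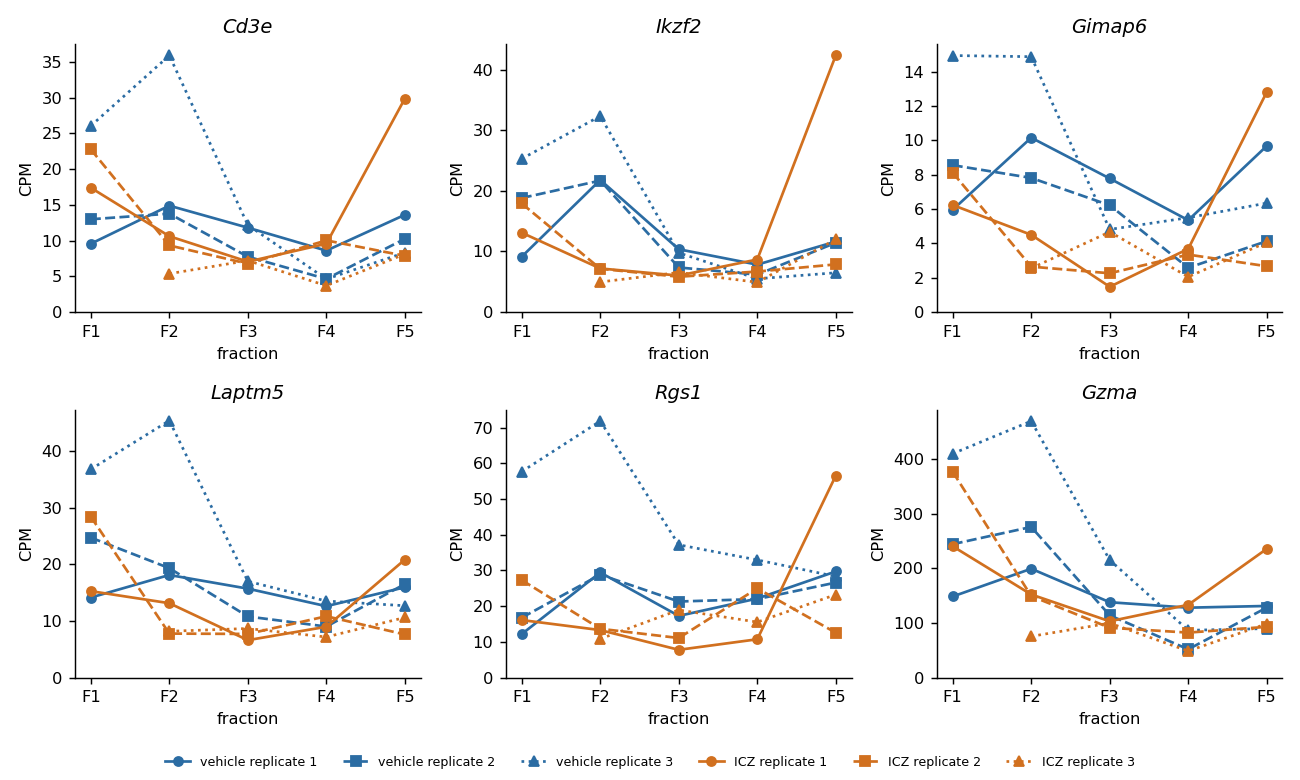
CPM (linear scale) of Cd3e, Ikzf2, Gimap6, Laptm5, Rgs1 and Gzma in each fraction, with 1 line per mouse, blue for vehicle and orange for ICZ. In F2 the 3 vehicle points lie above the 3 ICZ points in all 6 panels, for Ikzf2 at 21.7 to 32.4 against 4.96 to 7.19 CPM. All 6 genes are among the 22 of 37 tested members without overlap of the groups in F2, and other members overlap there. In F5 the highest point in each panel is that of ICZ replicate 1.

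Other lymphocyte genes and epithelial partners were compared in the same fraction. Among 42 further T cell genes, 23 were tested in F2 and 22 had a negative value, with a median of -1.27, 17 at an unadjusted p under 0.05 and 0 past the threshold of edgeR's test. With the replicate block 6 of 27 were lower, among them Trbc2 and Trdc (adjusted p = 0.0062 and 0.042). Trdc stood at 22.2, 30.1 and 32.2 CPM in vehicle F2 and at 18.2, 10.6 and 9.24 CPM in ICZ F2, and Trbc2 at 23.3, 26.3 and 52.7 CPM and at 12.6, 11.6 and 11.4 CPM. Of 16 epithelial genes that attract or bind these T cells, among them Ccl25, the ligand of Ccr9, Cdh1, which encodes E-cadherin, and the butyrophilin-like genes, 9 were tested in F2 with a median of -0.25, 1 at an unadjusted p under 0.05 and 0 calls; with the block 1 of 10 passed, Btnl1, a butyrophilin-like gene of villus epithelium.

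Markers of other cell types were read in F2 as well. The summed level of 17 macrophage and dendritic cell genes was 23.006, 23.1 and 42.5 CPM in vehicle mice and 17.1, 17.7 and 18.5 CPM in ICZ mice, without overlap. B cell and plasma cell genes stood at 39.8, 58.1 and 493 CPM against 12.4, 25.2 and 173 CPM, with vehicle replicate 3 far above its group, and with the replicate block Igha, Igkc and Jchain were lower in edgeR's test (adjusted p = 9.1e-07, 0.00074 and 0.0072). NK and innate lymphoid genes stood at 32.8, 39.3 and 62.7 CPM against 34.3, 24.7 and 22.6 CPM. Pan-epithelial genes stood at 6365, 5924 and 5184 CPM against 6067, 5916 and 5889 CPM, and crypt and proliferation genes at 659, 816 and 764 CPM against 743, 1019 and 1335 CPM. The part of these shifts in the T cell values was not tested.

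**Figure D4:**
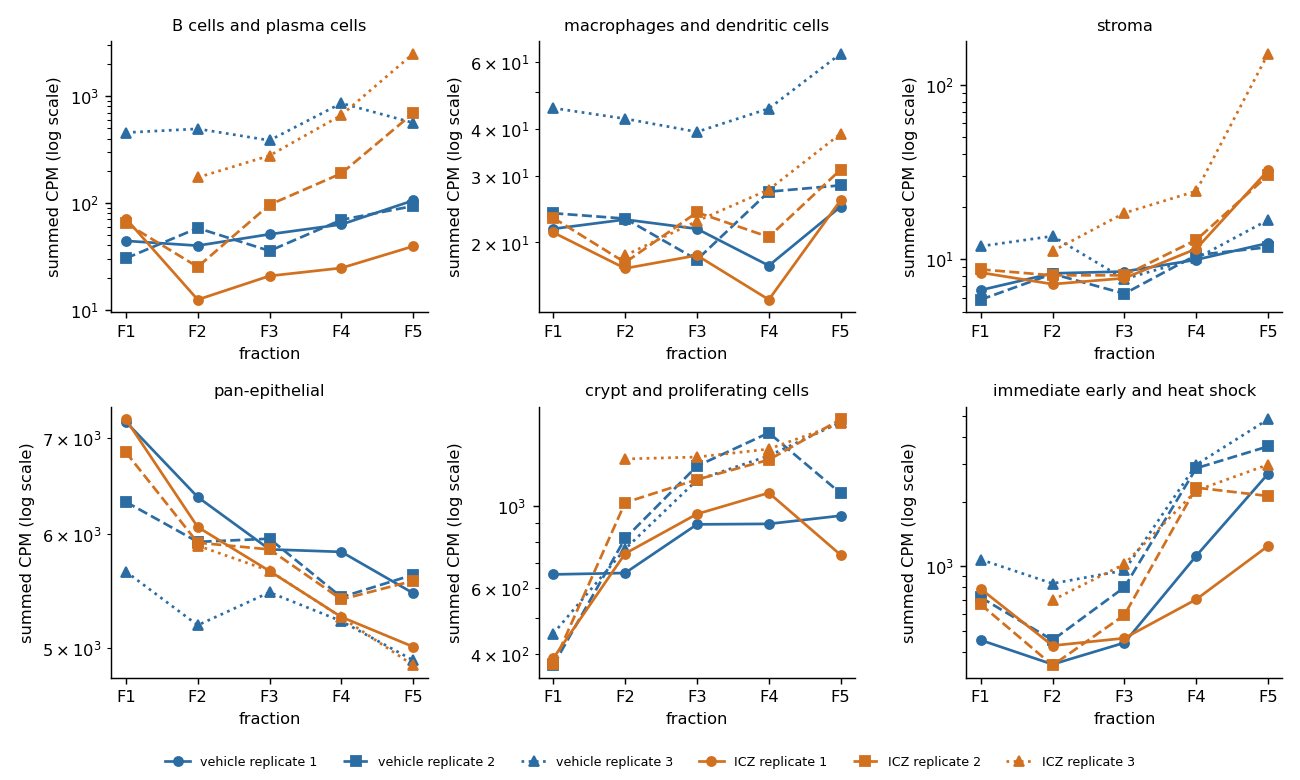
Summed CPM (log scale) of 6 other marker lists in fractions F1 to F5, with 1 line per mouse, blue for vehicle and orange for ICZ. B cell and plasma cell genes reach 2492 CPM and stroma genes 150.5 CPM in the F5 library of ICZ replicate 3, and pan-epithelial genes stay between 4862 and 7208 CPM.

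In F3 the summed level was 556 ± 157 CPM in vehicle and 373 ± 37.4 CPM in ICZ mice, a ratio of 0.671 without overlap and 0.794 without vehicle replicate 3. The median log2 fold change over 34 tested members was -0.54, 31 were negative against 50.6% of genes, and none passed in edgeR's quasi-likelihood test, beside 0.00815% of all genes, with 12 at an unadjusted p under 0.05 (9.15% of genes); DESeq2 and limma voom also called 0, edgeR without a filter 7 of 43, against 0.909% of genes. In 12 of the 34 every ICZ mouse lay below every vehicle mouse, against 5.94% of genes. The granule genes differed in sign here: Gzma stood at 138, 114 and 215 CPM in vehicle and 103, 91.3 and 99.8 CPM in ICZ mice, while Gzmb, granzyme B, had 5.18, 2.54 and 3.53 CPM against 7.04, 4.32 and 7.20 CPM (0.72 ± 0.32, adjusted p = 0.53). Xcl1, a chemokine that attracts cross-presenting dendritic cells, was also positive at 0.98 ± 0.46 (0.55).

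F1, F4 and F5 held no member past the threshold of edgeR's test without a block, beside 0.0324%, 0% and 0% of all genes. DESeq2 and limma voom also called 0 there. At an unadjusted p under 0.05 there were 0, 2 and 1 members, against 4.39%, 2.89% and 2.79% of genes. The summed level was 992 ± 482 CPM in vehicle and 1027 ± 296 CPM in ICZ mice in F1, and 385 ± 128 and 354 ± 123 CPM in F4. F1 lacked ICZ replicate 3, while vehicle replicate 3 had the highest F1 value of its group. The ratio was 1.03 in F1 and 0.919 in F4, and 1.4 and 0.93 without vehicle replicate 3. In F1 the median over 40 members was -0.004, with 20 negative and 20 positive values (51.6% of genes were negative). It ranged from -0.36 to 0.44 when single mice were left out. With the replicate number as a block, where vehicle replicate 3 had no partner, 37 of 40 were positive in F1, against 49.2% of genes. In edgeR's test with this block 11 were higher at an unadjusted p under 0.05 (4.55% of genes). Gzma and Ccl5 passed, both higher after ICZ, as did 0.319% of genes. In F4 the median without a block was 0.06 over 35 members. In F5 it was 0.31 over 36 members with 29 positive, against 51.7% of genes, and the summed level was 513 ± 94.0 CPM in vehicle and 637 ± 408 CPM in ICZ mice. That rests on 1 mouse: without ICZ replicate 1, whose F5 library also had the unusual composition above, the median was -0.38. Ikzf2 illustrates it with 11.6, 11.4 and 6.48 CPM in vehicle F5 and 42.4, 7.86 and 12.0 CPM in ICZ F5. Zap70 was the tested member whose groups did not overlap upward in F5, at 1.97, 2.00 and 0.564 CPM against 5.07, 2.28 and 3.59 CPM (1.29 ± 0.57, adjusted p = 1.0), and 2.78% of all genes did so.

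Whether the ICZ effect itself differed between fractions was tested over the 29 libraries, with a term for each mouse. None of 41 tested members passed in edgeR's quasi-likelihood test of the 4 treatment by fraction terms together, where 13 had an unadjusted p under 0.05 (5.22% of genes) and 0.00711% of all 14067 genes (1 gene) passed; DESeq2 and limma voom called 0 and edgeR without a filter 25 of 43, against 1.06% of genes. The contrast of the effect in F5 minus that in F2 was chosen with earlier results of these data known. In those results the T cell medians of F5 and of the sums had opposite signs, so its direction is no independent result. All 41 values were positive (44.8% of genes) with a median of 1.61. In edgeR's test 28 had an unadjusted p under 0.05 (8.36%) and 0 passed, beside 0.00711% of all genes. DESeq2 called 2 (0.064% of genes) and limma voom 0. For the effect in F2 minus that in F1, a contrast added after the values by fraction were seen, all 41 were negative (46.9% of genes) with a median of -1.38, 19 had an unadjusted p under 0.05 (6.77%) and 0 passed, as did 0% of all genes and 0 members by DESeq2 or limma voom. Those with the smallest p, Itgb7 at -2.198 ± 0.56 and Ms4a6b at -2.10 ± 0.67, had adjusted p-values of 0.69 and 0.71.

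Reads of F2 to F5 were added per mouse, so that all 6 mice entered with the same fractions. The summed level was then 616, 537 and 845 CPM in vehicle mice and 569.8, 395 and 364 CPM in ICZ mice, a ratio of 0.665 with overlap, since ICZ replicate 1 lay above vehicle replicate 2. Of 42 tested members 41 had a negative log2 fold change, with a median of -0.59 beside 0.006 over 15497 genes, of which 48.8% were negative; the positive one was Fasl, the death receptor ligand, at 0.22 ± 0.47. Eomes and Ptprcap were not tested. None passed an adjusted p of 0.05 in edgeR's quasi-likelihood test, and 0% of all genes did; DESeq2 and limma voom also called 0 members, and edgeR without a filter 4 of 43, against 0.117% of genes. At an unadjusted p under 0.05 there were 21 members of 42, against 5.72% of genes, and in 16 of 42 the ICZ mice all lay below the vehicle mice, against 6.25% of genes. Without vehicle replicate 3 the median was -0.38.

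In these sums, mice of the 2 treatments with the same replicate number deviated alike from their group means. The labels state no pairing, so the pairs below were chosen from these data. With the replicate number as a block 5 of 42 members were lower after ICZ at an adjusted p of 0.05 and none higher, against 0.77% and 0.664% of 16105 genes. Gimap6 had 8.45, 5.23 and 8.05 CPM in the vehicle mice and 4.76, 2.79 and 3.51 CPM in the ICZ mice of the same numbers, lower in 3 of 3 pairs, with a log2 fold change of -0.98 ± 0.16 (SE, adjusted p = 0.0045). Gimap4, a GTPase of the same family, had 18.6, 14.8 and 23.7 CPM against 14.5, 10.2 and 11.5 CPM (-0.66 ± 0.13, 0.025). Laptm5, a lysosomal membrane protein that lowers the surface level of the T cell receptor, had 16.0, 13.996 and 22.5 CPM against 11.3, 8.60 and 8.94 CPM (-0.85 ± 0.15, 0.026). In each of these the ICZ value was lower in 3 of 3 pairs and the groups did not overlap.

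The 2 other members that passed with the block share exon sequence with a neighbour on the other strand, and the strand setting of the counting is not given, so their values are uncertain. Cd160 had 8.23, 5.16 and 7.03 CPM against 4.67, 3.96 and 3.51 CPM (-0.74 ± 0.16, adjusted p = 0.032 in edgeR's test with the block). Its neighbour Pdzk1, an epithelial scaffold protein gene, had a log2 fold change of -0.68 in the same sums and an adjusted p of 0.0106 with the block. Ccr9 had 11.6, 13.4 and 19.2 CPM against 9.83, 9.34 and 9.76 CPM (-0.59 ± 0.14, adjusted p = 0.048), and its neighbour Slc6a20a, an amino acid transporter gene, had 0.30. Cd247, Coro1a and Gimap7 also overlap another coding gene, and Cd3e, Cd7, Ikzf2, Ms4a6b and Xcl1 a noncoding gene on the other strand.

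By role, the medians of the summed comparison lay close together: -0.40 for the receptor complex (4 genes), -0.64 for co-receptors (7), -0.64 for homing and retention (4), -0.44 for signalling (4), -0.60 for cytotoxic genes (7), -0.47 for NK-type and cytokine receptors (4), -0.58 for the Gimap family (4), -0.55 for transcription factors (4) and -0.78 for other lymphocyte genes (4). Among the 42 further T cell genes 28 of 32 tested were negative with a median of -0.44, and with the block Trbc2 passed at -0.71 ± 0.12 (adjusted p = 0.0058). The 12 tested epithelial partners had a median of -0.12 with 0 calls; with the block 1 of 13 passed, Btnl1 at -0.40 ± 0.07 (0.011).

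Genes of other cell types were read in the same sums. B cell and plasma cell genes stood at 64.9, 65.1 and 586 CPM in vehicle mice and 23.1, 287 and 882 CPM in ICZ mice. Stroma genes stood at 9.87, 9.38 and 12.4 CPM against 12.9, 16.2 and 51.0 CPM, higher in every ICZ mouse, and Dcn, Col3a1 and Myh11 passed edgeR's test with the block (adjusted p = 7.6e-05, 0.0011 and 0.012). Macrophage and dendritic cell genes stood at 22.3, 24.6 and 48.7 CPM against 18.3, 24.3 and 27.1 CPM. The 10 immediate early and heat shock genes had 1124, 1992 and 2501 CPM against 660.1, 1445 and 1681 CPM, lower in 3 of 3 pairs, and 7 of the 10 passed with the block. The part of these lists in the T cell values was not tested.

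Set against the CD3 chains instead of the whole library, the difference between groups was smaller. With the reads of Cd3d, Cd3e and Cd3g as the reference the median over members was -0.18, and none passed edgeR's quasi-likelihood test, where 0.0581% of all genes (9 genes) did. Per CD3 read, Gzma stood at 5.71, 5.91 and 6.53 in the vehicle mice and 4.72, 5.53 and 5.36 in the ICZ mice, and Laptm5 at 0.598, 0.582 and 0.675 against 0.363, 0.449 and 0.563. Cd2, Ptprc, Nkg7 and Klre1 likewise had every ICZ mouse below every vehicle mouse by this ratio, which makes 6 of 42 tested members, against 0.303% of 15497 genes. Itgae went the other way, with 0.310, 0.278 and 0.265 against 0.325, 0.314 and 0.374. It was the 1 member of 42 with every ICZ mouse above every vehicle mouse, against 3.95% of genes. These shares of all genes depend on the reference and are no like background for the members. The CD3 sum was itself at 0.788 times its vehicle level after ICZ, with overlap, which raises other genes on this scale. The CD3 genes are also among the 42 tested members. Fyn and Zap70 had a positive log2 fold change on this scale (0.08 and 0.31).

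Across the 29 libraries, which share mice and fractions, most members varied together. Log2 CPM of Ccl5 correlated with the summed level of the other members at a Pearson r of 0.988, Cd7 at 0.973, Gimap4 at 0.964 and Gzma at 0.963, while Rgs1 reached 0.627. Lower still were Prf1 (0.621), Fasl (0.583), Klrk1 (0.326), Eomes (0.107) and Cd2 (0.0512), each with 172 reads or fewer in all. Outside the list, the genes most like the summed level among 9310 with a mean of at least 5 CPM were Ctsw and Cd52 (both 0.933), Msn (0.931), Ppp1r18 (0.930), Trbc2 (0.924), Rac2 (0.922), Pik3cd (0.921), Trac (0.918), Ifi203 (0.915) and Trdc (0.915). These are descriptions over the same libraries.

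The promoters of the Gimap4, Laptm5 and Cd160 genes are shown as 3 examples. They were lower after ICZ in the sums with the replicate block and have an entry among the RefSeq promoter windows of GRCm38.p6. Ccr9, which also passed with the block and has a window, is not shown. The windows run from 250 bases before to 50 bases after a gene's start and were found for 32 of the 44 members. Capitals mark AGGAAG, an ETS core, and TGTGGT, a RUNX core, on either strand (CTTCCT and ACCACA in reverse). Each is written 5′ to 3′ on the strand of the gene. The Gimap4 window lies at chr6:48684328-48684627 on the plus strand, that of Laptm5 at chr4:130913066-130913365 on the plus strand and that of Cd160, the first of its windows, at chr3:96829302-96829601 on the minus strand.
Gimap4: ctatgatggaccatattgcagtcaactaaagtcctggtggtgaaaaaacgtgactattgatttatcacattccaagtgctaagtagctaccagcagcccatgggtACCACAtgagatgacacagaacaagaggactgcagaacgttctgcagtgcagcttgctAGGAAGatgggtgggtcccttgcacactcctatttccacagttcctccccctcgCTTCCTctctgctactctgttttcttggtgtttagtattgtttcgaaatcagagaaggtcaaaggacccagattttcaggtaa
Laptm5: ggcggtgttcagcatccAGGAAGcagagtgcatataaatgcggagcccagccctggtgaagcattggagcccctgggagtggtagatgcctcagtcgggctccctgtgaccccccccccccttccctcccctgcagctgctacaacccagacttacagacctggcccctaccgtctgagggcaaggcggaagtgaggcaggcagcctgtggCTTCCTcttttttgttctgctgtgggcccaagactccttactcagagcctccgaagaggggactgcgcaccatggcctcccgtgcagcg
Cd160: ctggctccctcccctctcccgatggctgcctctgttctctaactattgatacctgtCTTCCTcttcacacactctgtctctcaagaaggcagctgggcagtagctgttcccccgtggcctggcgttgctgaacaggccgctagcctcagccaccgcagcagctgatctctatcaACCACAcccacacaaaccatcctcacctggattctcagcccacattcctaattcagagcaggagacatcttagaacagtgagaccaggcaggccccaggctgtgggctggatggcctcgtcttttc

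The Gimap4 window holds 1 RUNX core and 2 ETS cores, that of Laptm5 2 ETS cores and that of Cd160 1 of each. Over the 32 members, AGGAAG was found in 23 (71.9%), against 38.4% of 27025 genes with a window, and TGTGGT in 14 (43.8%), against 18.9%. GCGTG, the core of the AHR response element (CACGC in reverse), was in none of the 3 windows shown and in 5 of the 32 members (15.6%), namely Cd8a, Cd160 in another window, Zap70, Lat and Fyn, against 35.2% of genes. A match is a run of letters in a window and is no measure of binding.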

How the data were processed

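The authors deposited whole-number read counts per gene, 1 column per library. Per the labels' protocols these came from 3' end libraries of total RNA. Per the submitters' processing notes the tools were FastQC 0.11.2, BWA 0.7.17-r1188, SAMtools 1.10 and HTSeq 0.11.2, with build GRCm38.p6. Whether counting used strand or molecular identifiers is not stated in any source used here. Lines naming no gene held 38.4% to 48.4% of counted reads and were left out.

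Counts were tested with edgeR 4.0.16 in R 4.3.3 (filterByExpr, TMM, robust quasi-likelihood F test, SE from the fold change and F), with Benjamini-Hochberg adjustment over all genes tested at 0.05. The steps were tested on simulated data. DESeq2 1.42.0, limma 3.58.1 (voom), other scalings, no filter, the replicate number as a block and leaving out each mouse were alternatives. Replicate numbers were taken as pairs where the deviations from the group means correlated over 0.1 in each of the 3 same-numbered pairs: 0.380, 0.244 and 0.466 in the sums, and 0.184, 0.111 and 0.169 in F2. The pairs were thus chosen from these same data, and the labels state none. In the titles, the vehicle and ICZ mice of replicate 1 carry different WT numbers, and those of replicates 2 and 3 share theirs. CPM and log2 CPM (prior count 2) used library totals multiplied by TMM factors, computed over the 29 libraries or over the 6 sums per mouse. Values after ± are the SD over mice or the SE of a fit, and the limit given for 0 reads covers counting error only.

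The members, the lists and the contrast of F5 minus F2 were chosen with earlier results of these data known. Values per mouse are given for the 2 members of highest mean CPM in each role and for members past a threshold in the summed test, its block fit or a fraction test (at most 4 a test). Other members named as exceptions, or as lower with the block in F2, were chosen after their values were seen. IDs were matched to the annotation for 44 of 44 members.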

Additional observations from a re-analysis of the deposited data

Results flagged for a closer look

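The step from F1 to F2 went in opposite directions in the 2 treatments. The summed level of the 44 T cell genes in F2 over that in F1 was 1.441, 1.027 and 1.193 in vehicle replicates 1 to 3 and 0.7035 and 0.3841 in ICZ replicates 1 and 2. Every vehicle mouse thus moved up and every ICZ mouse with both libraries moved down; for the sum this difference was not tested. Without Gzma and Ccl5 the ratio of vehicle replicate 2 was 0.9761, so its direction turned. The same opposite step was seen in 13 of 41 members taken one by one, against 2.40% of 14067 genes. Gene by gene the difference of the ICZ effect between F2 and F1 was tested with edgeR's quasi-likelihood test, and 0 members passed, with 19 at an unadjusted p under 0.05 (6.77% of genes) and 0 calls by DESeq2.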

How the results depend on the processing

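Counts of members past the threshold depended on the filter, the tool and the block. Without a filter on low counts they were 4 for the sums of F2 to F5, 28 for F2, 7 for F3, 36 between vehicle fractions, 32 between ICZ fractions, 21 for F5 against F1, 25 for the difference of the ICZ effect over fractions, 25 for F5 minus F2 and 14 for F2 minus F1, of 43 members each. Of all genes 0.117%, 1.42%, 0.909%, 13.6%, 16.1%, 13.2%, 1.06%, 0.561% and 0.247% passed in these fits. With DESeq2 they were 19 for F2, 21 between ICZ fractions, 8 for F5 against F1 and 2 for F5 minus F2 (1.02%, 26.0%, 27.5% and 0.064% of genes), and with limma voom 0 for F2 and 9 for F5 against F1 (0% and 28.6%). With the replicate block they were 5 for the sums, 7 for F2 to F4 alone, 11 for F2 and 1 for F3, all lower after ICZ (1.43%, 1.09%, 1.93% and 0.22% of genes in either direction), and 2 for F1, Gzma and Ccl5, both higher after ICZ (0.342%). Without the mouse block 10 members differed between vehicle fractions (1454 of 13164 genes). In F1 and F3 to F5 the samples share only a number, since not every same-numbered correlation was over 0.1 or, in F1, there are only 2 pairs. Without the F5 library of ICZ replicate 1 there were 25 between ICZ fractions (36.5%), and the F5 minus F2 median was 1.09. Relative to the CD3 chains the median of the sums was -0.18.

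Leaving out 1 mouse at a time gave counts of 0 to 0 and medians of -0.81 to -0.38 for the sums, 0 to 0 and -0.36 to 0.44 for F1, 0 to 14 and -1.67 to -0.996 for F2, 0 to 2 and -0.66 to -0.35 for F3, 0 to 0 and -0.24 to 0.36 for F4, and 0 to 0 and -0.38 to 0.66 for F5. The counts were 1 to 34 between vehicle fractions and 2 to 24 between ICZ fractions. They were 1 to 28 for F5 against F1, with medians of -1.19 to -0.26, and 0 to 0 for the 3 differences of the ICZ effect, with medians of 1.11 to 1.98 for F5 minus F2 and -1.94 to -0.75 for F2 minus F1. The cause of these shifts was not tested. Zap70 in the sums ranged from -0.41 to 0.28 with 1 mouse left out (0.28 without vehicle replicate 3) and was 0.31 relative to the CD3 chains, and Fyn was 0.082 on that scale. On plain library totals, chosen after seeing the data, no F2 over F1 ratio crossed 1; without Gzma and Ccl5 that of vehicle replicate 2 did, at 0.9761. Of the alternative values for the comparisons, 207 stayed near the main value and 43 moved. For counts, near meant equal or within 1.5-fold. For medians, it meant a shift below the SD of the members' mean log2 CPM within groups. The sign of a median was not part of that rule. An equal count includes 0 beside a main count of 0, as in many of the 207. It says little about stability where a test called almost no gene. For single genes or ratios, 337 alternative values kept their direction and, for genes, their side of the threshold. Another 14 gene values kept their direction but passed the threshold, and 4 gene or ratio values reversed. Depth limits genes such as Eomes, Klrk1 and Cd2, with 23, 66 and 95 reads in all.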

Other observations

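A library titled Undetermined, whose treatment the labels give as Unknown, held 7484796 gene reads. The labels do not say which mice its reads came from, and it entered no comparison. The 44 T cell genes together stood at 633.5 CPM in it, between the lowest (252.2 CPM) and the highest (1796 CPM) of the 15 vehicle libraries, whose median was 547.9 CPM. The 14 ICZ libraries ran from 224 to 1236 CPM. Cd3e had 13.965 CPM and Cd7 55.1 CPM in the Undetermined library.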
